A study of Mus musculus with 2 samples.

Results

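The genes described here are the nuclear genes of the mitochondrial respiratory chain. They were chosen by symbol alone: every symbol in both count tables that starts with Nduf, Uqcr or Atp5, that is Sdha, Sdhb, Sdhc, Sdhd, Cyc1 or Cycs, or that starts with Cox, a digit between 4 and 8 and the letter a, b or c. The rule took 89 of the 23284 symbols. Of these, 74 encode subunits of complexes I to V, and 7 encode alternative isoforms of complex IV subunits that are known from other tissues. A further 7 encode assembly factors or related proteins, and the last, Cycs, encodes cytochrome c. The study holds a single group of 2 RNA-seq libraries, named replicates 1 and 2. Each was made from GFP-positive cells sorted from dissociated pancreas of mouse embryos at e15.5 that carried the NGN3-EGFP reporter on a strain given as mixed, C57BL6. The labels do not say how many embryos or litters went into each library, so the spread between libraries may be technical, and no comparison between conditions exists.

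The respiratory chain sits in the inner mitochondrial membrane. Complexes I and II feed electrons from NADH and succinate to ubiquinone, complex III passes them to the small carrier cytochrome c, and complex IV hands them to oxygen. Complexes I, III and IV pump protons, and complex V, the ATP synthase, makes ATP from the gradient. NGN3 marks progenitors of the hormone-secreting islet cells. In beta cells, the insulin-secreting islet cells, ATP made by this chain couples glucose to insulin release. The mitochondrially encoded subunits were not analysed here.

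The deposited values are read counts per gene, scaled here to CPM, reads of a gene in 1000000 counted reads, and levels of different genes were compared per kilobase (kb) of exon. Replicate 1 held 12495143 counted reads and replicate 2 held 12043734. All 7 endocrine progenitor markers examined reached 100 CPM in both libraries, among them Neurog3, with 736 CPM in replicate 1 and 551 in replicate 2. Of the 7, 4 were higher in replicate 1 and 3 in replicate 2, and they summed to 9566 and 9532 CPM in the same order. Transcripts of other cell types were also counted. The 4 acinar markers summed to 1980 CPM in replicate 1 and 1463 in replicate 2, of which Ctrb1 alone gave 1321 and 986. Of the 4, 3 were higher in replicate 1. Cela1 was over 2-fold higher in replicate 2, with 70 reads in replicate 1 and 181 in replicate 2. All 4 mesenchyme markers were over 2-fold higher in replicate 1, where they summed to 336 CPM, against 95.7 CPM in replicate 2. The 3 immune markers summed to 56.3 CPM in replicate 1 and 11.3 in replicate 2, although Ptprc, the pan-leukocyte marker, had 0 and 1 reads in the same order. Endothelial markers were divided: Cdh5 had 194 reads in replicate 1 and 2 in replicate 2, while Pecam1 had 1 and 8 and Kdr 1 and 0. Of 4 erythroid markers, 3, with Hba-a1 and Hbb-b1 among them, had no read in either library, and Alas2 had no read in replicate 1 and 2.81 CPM in replicate 2. Of 6 striated muscle markers, Ckm, Myh3 and Myog had no read in either library, and the list summed to 15.4 CPM in replicate 1 and 19.8 in replicate 2. The part of these cells in the differences between libraries given below was not tested. In such pooled samples, fewer cells of a type and less RNA per cell cannot be told apart.

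The respiratory chain genes were measured at 1 CPM or more in both libraries for 81 of 89 genes, or 91.0%, where all symbols reached this level at a rate of 45.7%. At 100 CPM or more in both libraries there were 21 of them, or 23.6%, where the rate over all symbols was 7.85%. Together they held 0.975% of all counted reads in replicate 1 (95% Clopper-Pearson interval 0.970 to 0.981%) and 0.962% in replicate 2 (0.956 to 0.967%). The median level of the 88 genes with an exon length was 55.9 CPM per kb in replicate 1 and 50.8 CPM per kb in replicate 2. Of the 8 genes that fell short, 6 had no read in either library: the complex I subunit Ndufs5 and the isoforms Cox6a2, Cox7b2, Cox8b, Cox8c and Ndufa4l2. The other 2 were Cox7a1 and Cycs, each under 1 CPM in a single library.

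**Figure D1:**
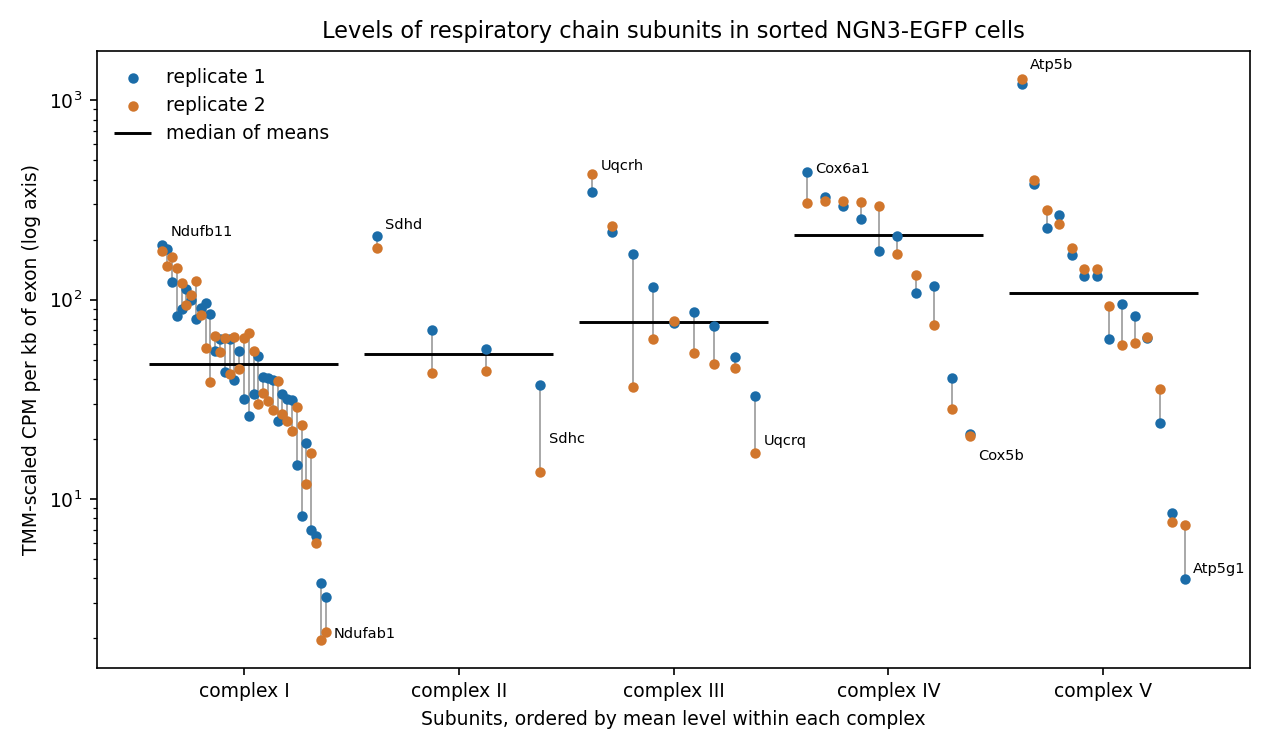
Level of each subunit of complexes I to V with reads, in CPM per kb of exon on a log axis, as a pair of points for replicates 1 and 2 joined by a line, with the median over subunits as a black bar. The median is highest for complex IV, at 212 CPM per kb, and lowest for complex I, at 47.4 CPM per kb, and the single highest gene is Atp5b of complex V.

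By complex, the median level of the subunits was 192 CPM per kb in replicate 1 and 231 in replicate 2 for complex IV. It was 113 and 117 CPM per kb in the same order for complex V, and 86.6 and 54.1 for complex III. Complexes II and I changed places between the libraries: complex II stood at 63.5 CPM per kb in replicate 1 and 43.3 in replicate 2, and complex I at 40.8 and 43.6. The order of complexes IV, V and III was thus shared by both libraries, but with exon lengths from the full annotation complex III, at a median of 66.6 CPM per kb over the libraries, stood above complex V, at 52.6. Across the 72 subunits with reads and a length, log2 level per kb in replicate 1 followed that in replicate 2 with a Pearson r of 0.93 and a Spearman rho of 0.90. These points share library preparation and depth. Levels per kb were higher for genes with shorter exon unions, with an r of -0.46 and a rho of -0.42 against log2 exon length. The level is itself divided by that length, so a negative relation is partly built in.

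Complex I, NADH dehydrogenase, is the largest of the 5 complexes, and 36 of its nuclear subunits were measured. They hold 7 core subunits, which carry the flavin and the iron-sulphur clusters that move electrons from NADH to ubiquinone, and 29 accessory subunits around them. The core subunits lay in a narrow band, with means between 15.9 and 49.9 CPM per kb. Ndufs8, an iron-sulphur subunit, was the highest of the 7, at 54.9 CPM per kb in replicate 1 and 44.8 in replicate 2. Ndufs7, another iron-sulphur subunit, had 33.7 CPM per kb in replicate 1 and 55.2 in replicate 2. The ranges of these genes over the libraries overlap, so their order is not resolved.

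Ndufs1, the largest iron-sulphur subunit, had 41.0 CPM per kb in replicate 1 and 34.1 in replicate 2. Ndufv2, which carries a further iron-sulphur cluster, had 39.4 CPM per kb in replicate 1 and 28.0 in replicate 2. Ndufs3, a structural core subunit, had 14.8 CPM per kb in replicate 1 and 28.8 in replicate 2. These values are less sure for Ndufs3 than for the rest, since only 38.6% of its 25-base words occur in no other annotated transcript. Ndufv1, which binds NADH and the flavin, was the lowest core subunit, at 8.20 CPM per kb in replicate 1 and 23.6 in replicate 2. The ratio of Ndufs8 to Ndufv1 per kb was 6.70 in replicate 1 and 1.90 in replicate 2, so the distance between the ends of the core set differed between libraries while its direction did not.

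Among the accessory subunits, which stabilise the enzyme and its assembly, the highest levels were those of the membrane-arm proteins Ndufb11, Ndufa1 and Ndufb9. Ndufb11 had 188 CPM per kb in replicate 1 and 175 in replicate 2. Ndufa1 had 179 CPM per kb in replicate 1 and 147 in replicate 2. Ndufb9 had 123 CPM per kb in replicate 1 and 163 in replicate 2. Each of the 3 stood above every core subunit in both libraries. When the median transcript length was used in place of the exon union, Ndufb5, another membrane-arm protein, came first with a mean of 218 CPM per kb.

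The low end of complex I was Ndufs5, with no read in either library, and Ndufab1, the mitochondrial acyl carrier protein, with 3.22 CPM per kb in replicate 1 and 2.15 in replicate 2. By counting error alone, a count of 0 allows up to 3 counts, or 0.241 CPM in replicate 1 and 0.248 in replicate 2. The treatment of reads with several matches is not known, so these values do not bound the amount of Ndufs5 transcript. The processed pseudogene BC002163, which shares 28.8% of the 25-base words of Ndufs5, had 364 reads in replicate 1 and 367 in replicate 2. These are 29.3 and 30.3 CPM. BC002163 was looked up after the 0 of Ndufs5 had been seen. The exon union of Ndufab1 spans 4387 bases, and by median transcript length its mean was 4.82 CPM per kb, still under all other complex I subunits with reads.

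The 5 assembly factors of complex I in the set had a median of 8.15 CPM per kb in replicate 1 and 10.3 in replicate 2, below the medians of the subunits. Ndufaf1, which helps build the membrane arm, had 12.1 CPM in replicate 1 and 1.32 CPM in replicate 2, a log2 ratio of 3.04 for replicate 1 over replicate 2. Ndufaf4, an early factor of the matrix arm, had 4.18 CPM in replicate 1 and 37.3 CPM in replicate 2, a log2 ratio of -3.11. Its partner Ndufaf3 had 36.3 CPM in replicate 1 and 32.2 CPM in replicate 2, a difference that did not pass the counting test described below. Ndufaf2, a late chaperone of the NADH-binding end, had 9.57 CPM in replicate 1 and 40.0 CPM in replicate 2, a log2 ratio of -2.05. Atp5sl, now known as Dmac2 and also an assembly factor of complex I, had 8.52 CPM in replicate 1 and 8.10 in replicate 2. Of the 5 factors, 3, or 60%, were over 2-fold apart, in both directions, beside 48.2% of all genes with at least 10 reads. The other 2 were nearly level.

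Complex II, succinate dehydrogenase, also belongs to the citric acid cycle and has 4 subunits, all of them nuclear. The membrane anchor Sdhd was the highest of them per kb, with 209 CPM per kb in replicate 1 and 182 in replicate 2. The flavoprotein Sdha, which oxidises succinate, had 70.7 CPM per kb in replicate 1 and 42.6 in replicate 2. The iron-sulphur subunit Sdhb had 56.4 CPM per kb in replicate 1 and 44.1 in replicate 2. The order of Sdha and Sdhb is not resolved, since their per-kb ratio was 1.25 in replicate 1 and 0.967 in replicate 2.

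The other membrane anchor, Sdhc, was the lowest, with 37.3 CPM per kb in replicate 1 and 13.6 in replicate 2. The per-kb ratio of Sdhd to Sdhc was 5.61 in replicate 1 and 13.4 in replicate 2, although the proteins form the anchor as a pair. All 4 subunits were higher in replicate 1, as were 6527 of all 13416 genes with at least 10 reads. The log2 ratios were 0.20 for Sdhd, 0.35 for Sdhb, 0.73 for Sdha and 1.46 for Sdhc. The summed level of the 4 subunits was 646 CPM in replicate 1 and 441 CPM in replicate 2.

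Complex III, the cytochrome bc1 complex, had 9 nuclear subunits in the tables. The hinge protein Uqcrh was the highest, with 346 CPM per kb in replicate 1 and 426 in replicate 2. Uqcr10, a small supernumerary subunit, had 219 CPM per kb in replicate 1 and 234 in replicate 2. Both catalytic nuclear subunits were lower than these 2 in each library. Cyc1, cytochrome c1, had 168 CPM per kb in replicate 1 and 36.5 in replicate 2. The Rieske iron-sulphur protein Uqcrfs1 had 86.6 CPM per kb in replicate 1 and 54.1 in replicate 2.

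The low end was Uqcrc1, a core protein, with 51.7 CPM per kb in replicate 1 and 45.4 in replicate 2, and Uqcrq, a small subunit, with 32.8 and 17.0 CPM per kb in the same order. Uqcrq is low only with the exon union of 1827 bases: by median transcript length its mean was 90.3 CPM per kb. The other subunits, Uqcrc2, Uqcrb and Uqcr11, had means between 60.8 and 89.6 CPM per kb. Of these, Uqcrb is uncertain, since 37.6% of its words are its own and 4 pseudogenes share the rest in part. The summed level of complex III was 1097 CPM in replicate 1 and 753 CPM in replicate 2. Of its 9 subunits, 6 were higher in replicate 1, beside 6527 of all 13416 genes with at least 10 reads.

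Cytochrome c and the subunit that delivers its electrons both had more reads in replicate 1. Cyc1 had 256 CPM in replicate 1 (interval 247 to 265), against 55.6 CPM in replicate 2 (51.4 to 59.9), which is 4.61-fold higher in replicate 1. Cycs had 6.27 CPM in replicate 1 (4.96 to 7.83), from 78 reads, and 0.579 CPM in replicate 2 (0.233 to 1.19), from 7 reads. The intervals of the libraries do not overlap for either gene. The level of Cycs was 2.01 CPM per kb in replicate 1 and 0.185 in replicate 2, at percentile 4.1 of the detected genes by mean, while Cyc1 stood at percentile 96.0. Only 66.5% of the words of Cycs are its own, and 28.9% occur in Gm10053. That gene is annotated as protein coding, and its symbol is not among those counted.

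Complex IV, cytochrome c oxidase, had 10 main subunits and 7 alternative isoforms in the set. The main subunits were led by Cox6a1, with 437 CPM per kb in replicate 1 and 306 in replicate 2, by Ndufa4, a subunit first assigned to complex I, with 326 and 313, and by Cox8a, with 296 and 312. The ranges of the 3 over the libraries overlap. The low end was Cox7c, with 40.2 CPM per kb in replicate 1 and 28.1 in replicate 2, and Cox5b, with 21.1 and 20.6. Cox6a1 exceeded Cox5b per kb by 20.7 times in replicate 1 and 14.9 times in replicate 2. The levels measured for these 2 subunits, which occur together in the enzyme, were thus far from equal. Both are less sure, since 69.5% of the words of Cox6a1 and 65.0% of those of Cox5b are their own. Cox7a2l, a factor for supercomplexes of complexes III and IV, had 169 CPM in replicate 1 and 93.0 CPM in replicate 2.

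Several complex IV subunits exist as a widespread isoform and a second form typical of heart and skeletal muscle, lung or testis, and except for subunit 6b in replicate 1 the levels here were almost wholly those of the widespread form. Cox6a2 and Cox8b, the forms of heart and skeletal muscle, had no read in either library, nor had Cox7b2 and Cox8c, known from testis, or Ndufa4l2, a hypoxia-induced relative of Ndufa4. Against the limit of 3 counts per library, Cox6a1 was at least 1231 times higher than Cox6a2 per kb in replicate 1 and at least 840 times in replicate 2. Ndufa4 was at least 1264 times higher than Ndufa4l2 in replicate 1 and at least 1178 times in replicate 2. For Cox7b over Cox7b2 the bounds were 569 in replicate 1 and 678 in replicate 2. For Cox8a they were 442 and 453 in the same order over Cox8b, and 562 and 577 over Cox8c. Cox4i1 and Cox4i2, the common and the lung form of subunit 4, lie outside the symbol rule, and Cox4i1 was at least 873 times higher than Cox4i2 in replicate 1 and at least 1099 times in replicate 2.

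**Figure D2:**
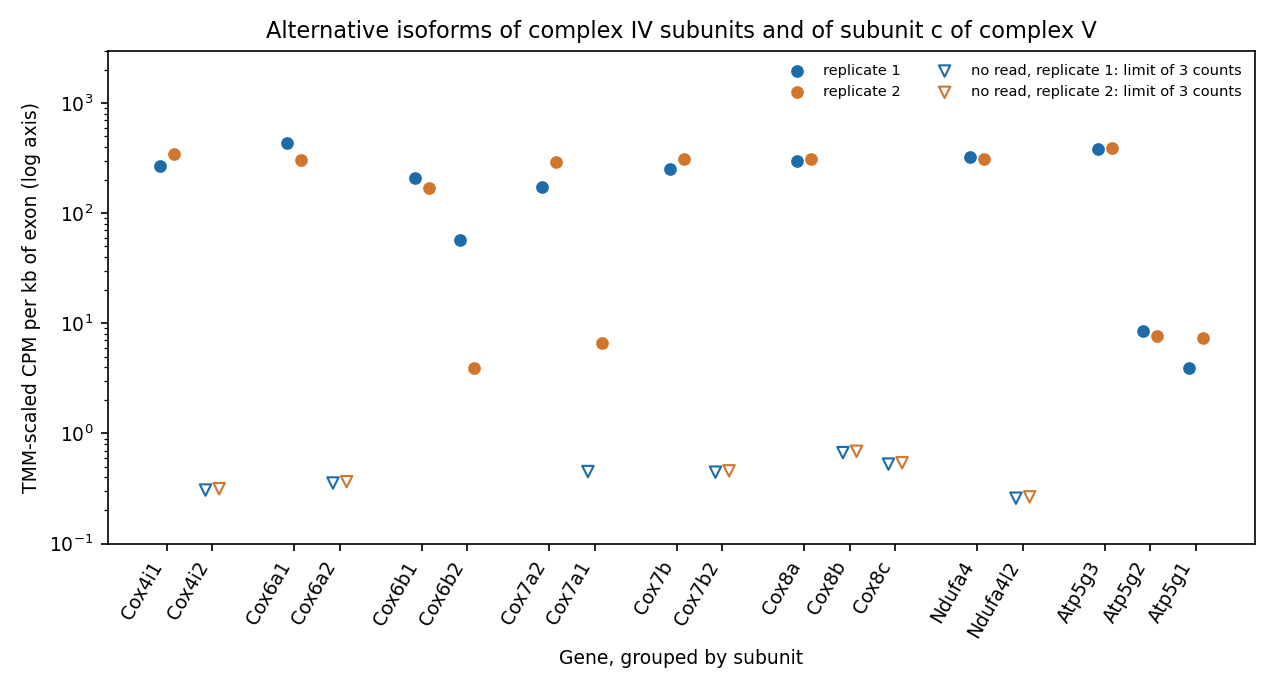
Level of alternative isoforms of complex IV subunits and of subunit c of complex V in CPM per kb of exon on a log axis, with filled points for replicates 1 and 2 and open triangles for the limit of 3 counts where no read was counted. The widespread complex IV forms lie between 169 and 437 CPM per kb in both libraries, and Cox6b2 and Cox7a1 are the only alternative complex IV forms drawn with reads.

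Cox6b2 and Cox7a1 differed from this pattern. Cox6b2, the testis form of subunit 6b, had 528 reads or 42.4 CPM in replicate 1 (38.9 to 46.2), against 35 reads or 2.89 CPM in replicate 2 (2.02 to 4.02). Cox6b1 over Cox6b2 was therefore 3.65 per kb in replicate 1 and 43.2 in replicate 2, with Cox6b1 itself at 129 and 104 CPM. All of the words of Cox6b2 are its own among annotated transcripts. Cox7a1, the form of heart and skeletal muscle, had no read in replicate 1 and 43 reads or 3.55 CPM in replicate 2 (2.57 to 4.79), which is at least 14.7-fold higher in replicate 2. The muscle markers were divided: Acta1 had no read in replicate 1 and 199 reads in replicate 2, Actc1 had 192 and 39, Tnnt3 had 0 and 2, and Ckm, Myh3 and Myog were at 0 in both. The part of muscle cells in the Cox7a1 reads was not tested.

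Complex V, the ATP synthase, took 44.3% of the reads of the set in replicate 1 and 48.7% in replicate 2, more than any other complex. Atp5b, the beta subunit that holds the catalytic sites, alone held 23.7% of them in replicate 1 and 25.6% in replicate 2. Its level was 1213 CPM per kb in replicate 1 and 1281 in replicate 2, at percentile 99.9 of the detected genes. Atp5a1, the alpha subunit that alternates with beta in the F1 head, had 229 CPM per kb in replicate 1 and 283 in replicate 2. Atp5c1, the gamma subunit that forms the rotating stalk, had 132 CPM per kb in replicate 1 and 142 in replicate 2. Alpha and beta are present in equal copies in the enzyme, but the per-kb ratio of Atp5b to Atp5a1 was 5.29 in replicate 1 and 4.53 in replicate 2. The other F1 subunits were Atp5e, epsilon, with 266 and 241 CPM per kb in replicates 1 and 2, and Atp5d, delta, with 95.0 and 58.9.

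Subunit c, which builds the rotating ring in the membrane, is encoded by 3 genes with the same mature protein, and a single gene supplied most of the reads. Atp5g3 had 381 CPM per kb in replicate 1 and 396 in replicate 2, second only to Atp5b in the complex. Atp5g2 had 8.47 CPM per kb in replicate 1 and 7.69 in replicate 2, and Atp5g1 had 3.94 and 7.39. Atp5g3 over Atp5g1 was 96.5 in replicate 1 and 53.6 in replicate 2, and Atp5g3 over Atp5g2 was 45.0 and 51.5. The order of the lower pair depends on the length used, since Atp5g1 over Atp5g2 was 0.466 in replicate 1 and 0.961 in replicate 2 with an exon union of 4912 bases for Atp5g1, but 1.53 on average with the full annotation. The value of Atp5g2 is uncertain, since only 12.2% of its words are its own and 2 pseudogenes share most of them.

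The remaining complex V subunits, which form the stator and the membrane part, lay between 29.7 and 175 CPM per kb on average. The lowest of these, Atp5l, subunit g, had 23.9 CPM per kb in replicate 1 and 35.4 in replicate 2. It is uncertain for the same reason as Atp5g2, with 14.4% of its words its own. Atp5o, the protein that joins the stator to the F1 head, had 83.0 CPM in replicate 1 and 104 CPM in replicate 2, and has no per-kb level because its symbol matched more than 1 annotated gene. Atp5s, which is not a subunit, had 19.8 CPM in replicate 1 and 24.6 CPM in replicate 2.

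**Figure D3:**
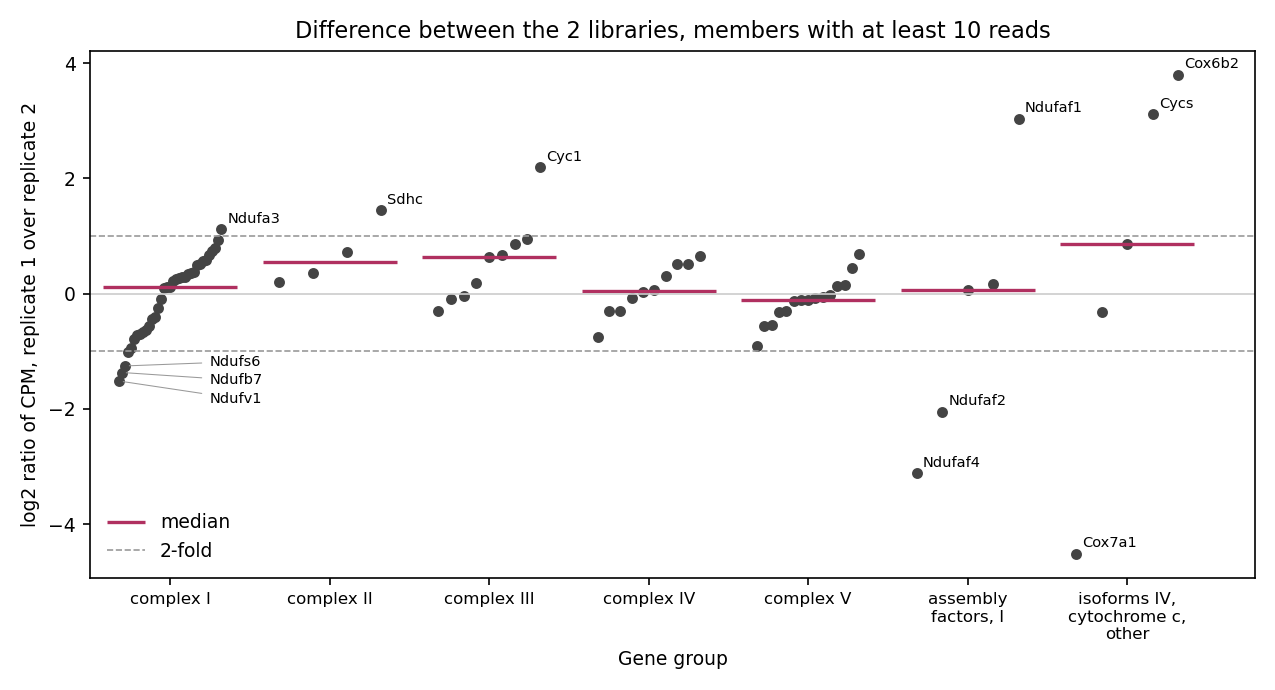
Log2 ratio of CPM, replicate 1 over replicate 2, for each of the 83 genes with at least 10 reads, by complex and class, with medians in red and dashed lines at 2-fold. Complex II lies wholly above 0, complexes IV and V have no main subunit beyond 2-fold, and the ratio drawn for Cox7a1, with no read in replicate 1, depends on the prior count.

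The difference between the libraries was read as a log2 ratio of replicate 1 over replicate 2 for genes with at least 10 reads, which 83 of the 89 had. Of these, 13 were over 2-fold apart, or 15.7%, while the share among all 13416 genes with at least 10 reads was 48.2%. In replicate 1, 6 were higher, namely Cox6b2, Cycs, Ndufaf1, Cyc1, Sdhc and Ndufa3, against a rate of 22.3% over all genes. In replicate 2, 7 were higher, among them Cox7a1, Ndufaf4, Ndufaf2, Ndufv1, Ndufb7 and Ndufs6, against 25.9%. Among all genes the share over 2-fold was smaller at higher levels, so genes of like level were also set side by side. Between 10 and 100 CPM, 9 of 51 respiratory chain genes were over 2-fold apart, or 17.6%, beside 42.9% of all genes of that level. These were 3 higher in replicate 1, beside 21% of all genes, and 6 higher in replicate 2, beside 21.9%. Between 100 and 1000 CPM it was 1 of 25, Cyc1, or 4.0%, beside 12.2% of all genes, of which 6.7% were higher in replicate 1 and 5.51% in replicate 2.

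The median log2 ratio of the 83 genes was 0.11, against -0.04 over all 13416. By complex, the median was 0.54 for the 4 subunits of complex II and 0.64 for the 9 of complex III, against 0.12 for the 35 of complex I, 0.05 for the 10 of complex IV and -0.11 for the 15 of complex V. The medians of complexes II and III were thus above 0, towards replicate 1. Of the 15 complex V subunits, 11 were higher in replicate 2, beside 6889 of all 13416 genes, and none was over 2-fold apart. Among single genes, Ndufv1 had 14.5 CPM in replicate 1 and 41.9 CPM in replicate 2, which is 2.88-fold higher in replicate 2. Ndufb7, an accessory subunit of the membrane arm, had 16.2 CPM in replicate 1 and 42.2 CPM in replicate 2. In the other direction, Sdhc had 118 CPM in replicate 1 and 43.1 CPM in replicate 2, which is 2.75-fold higher in replicate 1.

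A two-sided exact binomial test of each gene's reads, which covers counting error and compares these 2 libraries only, gave an adjusted p under 0.05 after Benjamini-Hochberg adjustment for 69 of the 83 genes, beside 85.8% of all genes. Of these, 39 were higher in replicate 1, or 47.0%, beside 41.7% of all genes, and 30 were higher in replicate 2, or 36.1%, beside 44.1%. For most of these genes the libraries therefore differed by more than counting error but by less than 2-fold. Cox5b, Uqcrb, Atp5f1, a stator subunit, and Ndufb4, of the complex I membrane arm, were among the 14 that did not pass. Cox5b had 19.4 CPM in replicate 1 and 18.9 CPM in replicate 2. An exact permutation test over 2 libraries cannot give a p below 0.5.

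Other families were measured in the same way. Mitochondrial ribosomal proteins, which translate the mitochondrially encoded subunits, reached 1 CPM in both libraries for 74 of 76 genes, with a median of 14.5 CPM per kb, against 52.5 for the respiratory chain. Of 75 with enough reads, 24 were over 2-fold apart, or 32%, beside 48.2% of all genes, with 10 higher in replicate 1 and 14 in replicate 2. Subunits of the vacuolar ATPase, a related rotary pump of other membranes, reached 1 CPM in both libraries for 15 of 23 genes, with a median of 29.9 CPM per kb, and 6 of 16, or 37.5%, were over 2-fold apart. None of these differences between families was tested.

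Assembly factors outside the symbol rule, 24 in all, reached 1 CPM in both libraries for 20. Of 23 with enough reads, 12 were over 2-fold apart, 6 in each direction, and these 52.2% are near the 48.2% of all genes. By the exact binomial test 11 were higher in replicate 1 and 8 in replicate 2, beside 41.7% and 44.1% of all genes. The highest per kb were Atpif1, the inhibitor of ATP synthase, with 298 CPM in replicate 1 and 209 CPM in replicate 2, Lrpprc, a binding protein of mitochondrial mRNA, with 176 and 191, and Surf1, a complex IV assembly factor, with 16.7 and 40.2. By median transcript length Cox17, a copper chaperone of complex IV, with a mean of 34.9 CPM per kb, took the place of Surf1, with 24.3. Of 14 regulators of mitochondrial genes, 12 reached 1 CPM in both libraries, and 3 were over 2-fold higher in replicate 1 and 4 in replicate 2, which at 50% is near the 48.2% of all genes. By the exact binomial test 7 were higher in each library. By exon union the highest per kb were Gabpa, with 160 CPM in replicate 1 and 101 CPM in replicate 2, Yy1, with 71.5 and 132, and Gabpb2, with 108 and 83.8. This order depends on the length used: by median transcript length Tfam, which packages and transcribes mitochondrial DNA, came first with a mean of 44.7 CPM per kb, before Gabpa, with 36.3, and Gabpb1, with 23.7.

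Promoters of the respiratory chain genes were searched for the letters that such regulators read, since NRF1, GABPA with its partners, YY1 and the oestrogen-related receptors are known to bind promoters of respiratory chain genes. RefSeq promoter windows on GRCm38.p6, from 250 bases before the start to 50 after it, matched 75 of the 89 genes. Most were matched by symbol. Others, among them Atp5f1, Atp5s and Atp5sl, were matched through a newer symbol that lists theirs as a synonym. For the genes at 1 CPM or more in both libraries only the symbol was used. Exact letters were searched on both strands, none of the 5 motifs contains another, and matches of different motifs may share bases. The palindromic NRF1 motif, the capitals in the windows below, was found in 6 genes, or 8.0% of the 75, in 2.59% of the genes at 1 CPM or more in both libraries, and in 1.07% of all 27018 genes with a window. The 6 were Ndufa11, Ndufaf4, Uqcrc1, Cox6a1, Atp5k and Atp5g2. The windows of 4 of them are shown, 1 for each of complexes I, III, IV and V, with the NRF1 match in capitals, from 5′ to 3′ on the strand of the gene.
Ndufa11, chr17:56717512-56717811, plus strand: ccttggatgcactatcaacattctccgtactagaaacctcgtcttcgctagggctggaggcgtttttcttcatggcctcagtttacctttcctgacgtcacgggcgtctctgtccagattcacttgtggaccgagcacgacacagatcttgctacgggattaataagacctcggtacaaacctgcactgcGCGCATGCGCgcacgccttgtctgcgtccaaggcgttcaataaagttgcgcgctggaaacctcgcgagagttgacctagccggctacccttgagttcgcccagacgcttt
Uqcrc1, chr9:108936398-108936697, plus strand: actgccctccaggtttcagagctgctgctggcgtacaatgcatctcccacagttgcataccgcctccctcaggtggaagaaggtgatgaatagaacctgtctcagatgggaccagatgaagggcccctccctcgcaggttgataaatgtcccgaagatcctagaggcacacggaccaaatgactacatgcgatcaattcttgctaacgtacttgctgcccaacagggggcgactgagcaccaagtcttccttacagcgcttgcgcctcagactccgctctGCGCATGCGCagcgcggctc
Cox6a1, chr5:115348909-115349208, minus strand: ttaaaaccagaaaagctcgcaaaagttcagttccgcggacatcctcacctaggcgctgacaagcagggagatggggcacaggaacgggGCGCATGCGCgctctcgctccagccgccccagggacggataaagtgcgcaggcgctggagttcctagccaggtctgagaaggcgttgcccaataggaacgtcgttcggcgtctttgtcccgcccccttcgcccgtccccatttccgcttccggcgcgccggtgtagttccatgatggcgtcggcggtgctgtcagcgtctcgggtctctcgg
Atp5k, chr5:108434350-108434649, minus strand: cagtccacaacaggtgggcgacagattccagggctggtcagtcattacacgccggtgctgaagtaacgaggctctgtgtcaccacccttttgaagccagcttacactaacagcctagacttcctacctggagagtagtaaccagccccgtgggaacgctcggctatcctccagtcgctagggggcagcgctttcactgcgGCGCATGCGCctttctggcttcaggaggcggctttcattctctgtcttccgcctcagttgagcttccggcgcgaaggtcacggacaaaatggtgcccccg

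Counted with the first base of the start as 0, the match began at position -60 in Ndufa11, at 30 in Uqcrc1, at -162 in Cox6a1 and at -50 in Atp5k, so no single distance was shared. The levels of these 4 genes ran from 51.7 and 45.4 CPM per kb in replicates 1 and 2 for Uqcrc1 to 437 and 306 for Cox6a1. Ndufa11, an accessory subunit of complex I, had 95.8 and 57.1 CPM per kb in the same order, and Atp5k, a membrane subunit of the ATP synthase, had 167 and 182. The other 2 genes with the match, Atp5g2 and Ndufaf4, had means of 8.08 and 5.71 CPM per kb, so the match was found at both ends of the range of levels.

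An extended YY1 motif around the letters ATGGCG was found in 5 genes, or 6.67%. They were Ndufa9, Ndufs4, Ndufs6, Ndufs7 and Atp5sl, all of them tied to complex I, as were 41 of the 89 respiratory chain genes. Among the genes at 1 CPM or more in both libraries, the share with this motif was 1.94%. The letters AAGGTCA, the core site of oestrogen-related receptors, were found in 8 genes, or 10.7%, against 3.63%. These were Ndufb2, Ndufb4, Ndufs5, Sdhd, Atp5e, Atp5g3, Atp5k and Atp5l. The ETS letters CCGGAAG, which GABPA reads, were found in 17 genes, or 22.7%, against 20.8%, and the letters TATAAA in 7 genes, or 9.33%, against 8.3%. Among all genes with a window, the shares were 0.755% for YY1, 5.38% for AAGGTCA, 9.93% for ETS and 15.7% for TATAAA. The 75 respiratory chain genes were not filtered by level. Ndufs5, with an AAGGTCA match, and Cox7b2 and Cox8b, with TATAAA matches, had no read in either library. A match describes letters in the window and does not show that a factor was bound there.

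**Figure D4:**
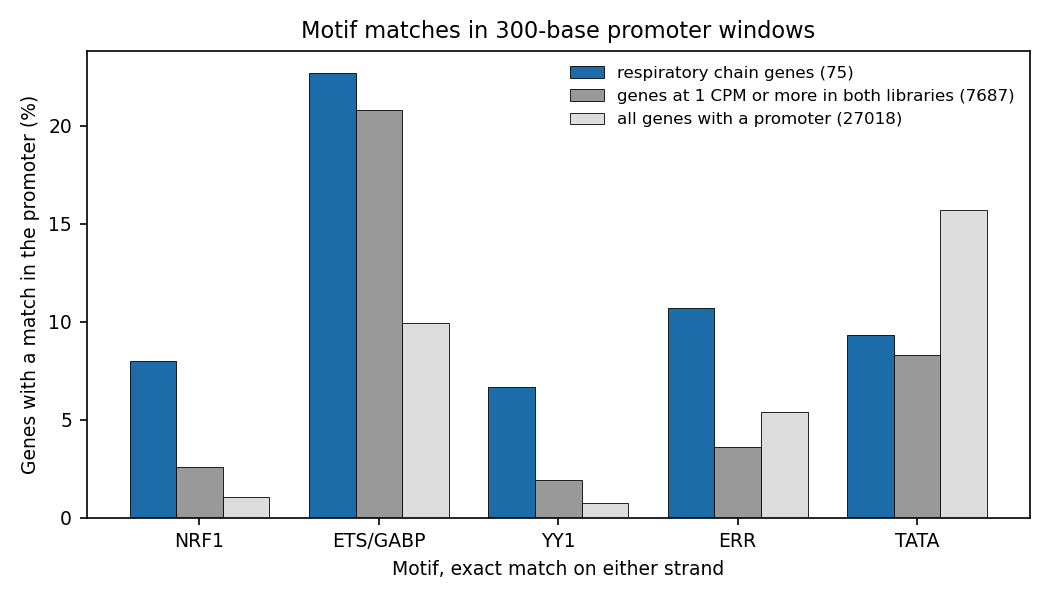
Share of genes, in percent, whose promoter window holds an exact match to each of 5 motifs on either strand, for the 75 respiratory chain genes, for the 7687 genes at 1 CPM or more in both libraries and for all 27018 genes with a window. The respiratory chain bar is highest in the group for NRF1, at 8.0%, YY1, at 6.67%, and ERR, at 10.7%, and is close to the middle bar for ETS/GABP and TATA.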

How the data were processed

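RNA-seq was made from 2 libraries of 1 group, and the authors deposited raw read counts per gene symbol, 1 file for each library. Per the submitters' processing notes, TopHat2 2.0.4, Cufflinks 2.0.2, cutadapt, FastQC and DESeq were used with the build mm9, in roles not stated. The counting program, its annotation, its strand setting and its treatment of reads with several matches were not given in the sources used here, so genes that share sequence or overlap are uncertain. The respiratory chain genes and the gene lists were chosen with earlier results of these data known.

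Library sizes were scaled by TMM (edgeR 4.0.16, R 4.3.3). Log2 ratios were taken for genes whose reads in both libraries summed to 10 or more, with a prior count of 2. Intervals are 95% Clopper-Pearson intervals, and a count of 0 allows up to 3 counts; both cover counting error only, since reads are not independent molecules. The exact binomial test, from scipy 1.17.1 in Python 3.11.15, was adjusted by Benjamini-Hochberg over 13416 genes, and its code was tested on simulated data. Exon lengths are unions of basic transcripts in GENCODE M21 on GRCm38, which is not the build of the counts. Of the symbols, 97.8% matched a single gene there. A gene's own 25-base words are those found in no other M21 transcript, pseudogenes included. The genome itself was not searched. Of 33 genes that share at least 20% of the words of a respiratory chain gene, 4 have a symbol among those counted. Promoters are RefSeq windows on GRCm38.p6. The genes named are the 3 highest and 2 lowest subunits of each complex per kb, isoform pairs, the 5 largest ratios in each direction, genes without reads, core and catalytic subunits, assembly factors and the 3 highest of each list outside the rule; others are named as members of counts. Some genes that meet this rule are not reported here and stay in the counts. Alternatives were other library scalings (totals, DESeq2 1.42.0 size factors, totals without Rn45s), detection limits, filters, prior counts and lengths, and each library alone.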

Additional observations from a re-analysis of the deposited data

How the results depend on the processing

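No paired analysis was possible because both libraries belong to 1 group. The order of Atp5g1 and Atp5g2 and that of complexes III and V turned with the exon length used. The count of genes at the detection limit in both libraries ran from 74 to 82, against 81. The 74 came from a shorter list, without the 7 assembly factors and related proteins but with the alternative isoforms and Cycs. Of the 74 subunits alone, 73 reached the limit. The median log2 ratio between the libraries ran from 0.06 to 0.12, against 0.11. The exact binomial test combined with a 2-fold limit left 6 genes higher in replicate 1 and 7 in replicate 2, in place of 39 and 30. Median levels per kb moved with the exon length used. With the full annotation they were 27.7 for complex I, 32.7 for complex II, 154 for complex IV and 52.6 for complex V. With the median transcript length, a choice made after seeing the data, they were 52.5 for complex I and 159 for complex V. Without a length, the median CPM was 52.7 for complex I, 122 for complex II, 144 for complex IV and 104 for complex V. With each library left out, the median ran from 40.8 to 43.6 for complex I and from 113 to 117 for complex V, against 47.4 and 107 for the mean of both. Atp5g1 over Atp5g2 was 1.53 with the full annotation and 4.50 by CPM, against 0.669. Atp5g3 over Atp5g1 was 23.9 with the full annotation, 39.5 with the median transcript length and 10.6 by CPM, against 71.9, and Atp5g3 over Atp5g2 was 36.6 with the full annotation and 38.9 with the median transcript length, against 48.1. With each library left out, Cox6b1 over Cox6b2 ran from 3.65 to 43.2, against 12.6. The respiratory chain share of reads was 1.01% without Rn45s, against 0.969%. Depth limits the lowest genes, since 7 reads stand behind Cycs in replicate 2, and 2 libraries limit every spread given.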
